A study of Homo sapiens with 6 samples.

Results

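Human aldehyde dehydrogenases and glutathione transferases were followed in 6 RNA-seq libraries of cells labelled MKN-45, an established gastric adenocarcinoma line. Members were chosen by gene symbol. ALDH symbols needed a family number, a letter and a gene number. GST symbols needed a class letter (A, K, M, O, P, T or Z) and a number, and a final B was allowed. The rule used no measured value. It found 36 of the 62700 genes in the table, 18 in each family. ALDH2, whose symbol has no subfamily letter, was not matched by the rule and is therefore not a member.

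Aldehyde dehydrogenases use NAD+ or NADP+ to oxidise reactive aldehydes to acids, and individual members serve retinoic acid synthesis, folate metabolism, lipid repair or amino acid breakdown. Glutathione transferases join glutathione to electrophilic compounds, which are then exported, and some members act as isomerases or reductases instead. NNMT, the gene named in the study's design, encodes the enzyme that methylates nicotinamide, a precursor of NAD+, with S-adenosylmethionine as the methyl donor.

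The libraries comprised 3 labelled NNMT knockdown and 3 labelled control, all harvested 48 h after transfection, and the labels describe the replicates of each condition as independent. For the first group the labels give NNMT-directed shRNA in some fields and siRNA in another. For the controls they give a negative-control shRNA or siRNA, while the design text describes them as untouched. Whether the cells were a single clone was not stated. Library totals lay between 40558680 and 56067484 counted reads. Levels are given as CPM, reads scaled to a common library total, or as RPKM, which is also scaled to the length of the merged exons, where genes are compared with each other.

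NNMT lies on the plus strand at chr11:114257787-114313536 (hg38). It had 2, 8 and 14 reads in replicates 1, 2 and 3 labelled NNMT knockdown, against 0, 8 and 12 reads in control replicates 1, 2 and 3. The groups overlapped, and NNMT was close to the detection limit in every library. In edgeR's quasi-likelihood test the log2 fold change was 0.48 (SE 0.93) and the adjusted p 0.9995, and the fold had 95% bounds of 0.336 and 5.78. A two-sided exact permutation test on the log2 scale gave p = 0.6, and 3 against 3 libraries allow no p below 0.1. A lower NNMT level was therefore not detectable, and the first group is called "labelled NNMT knockdown" throughout. Of 12 epithelial markers, 11 averaged above 1 CPM. The epithelial list summed to 1699 to 1989 CPM in libraries labelled NNMT knockdown and 1705 to 1772 CPM in controls. Of 22 gastric and intestinal markers, 13 averaged below 1 CPM, and CDX1, CDX2 and GKN1 had 0 reads in all libraries. The other 9 averaged above 1 CPM, with FOXA2 at 90.3 CPM and MUC6 at 50.9 CPM the highest. The summed level of the gastric and intestinal list was 163.9 to 224.7 CPM in libraries labelled NNMT knockdown and 138 to 238.2 CPM in controls. Of 10 fibroblast and stroma markers 5 averaged above 1 CPM, with VIM at 816 CPM and COL1A1 at 323 CPM the highest. Mostly through these genes, that list summed to 1190 to 1336 CPM in libraries labelled NNMT knockdown and 1141 to 1229 CPM in controls. Of 8 blood and endothelium markers 1 averaged above 1 CPM, PECAM1 at 23.2 CPM. The sums of that list were 18.54 to 27.06 CPM in libraries labelled NNMT knockdown and 21.38 to 27.02 CPM in controls. The part of these cells' markers in the results was not tested.

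The members covered a wide range of levels. In every library, 17 of the 36 lay above 10 CPM (9 ALDH and 8 GST members), and 14 lay below 1 CPM. The tested members had a median of 4.23 RPKM, against 2.42 RPKM over all 20250 genes tested. Of the 36 members, 23 passed the filter on low counts, 13 ALDH and 10 GST genes. RPKM divides by merged exons, for example 17914 bases for ALDH7A1 and 3007 for ALDH9A1. The order of members per length and their standing among tested genes thus depend on the annotated length. By mean CPM, GSTK1 (143) lay above GSTP1 (129), and ALDH3A2 (100) lay close to ALDH1A3 (109).

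**Figure D1:**
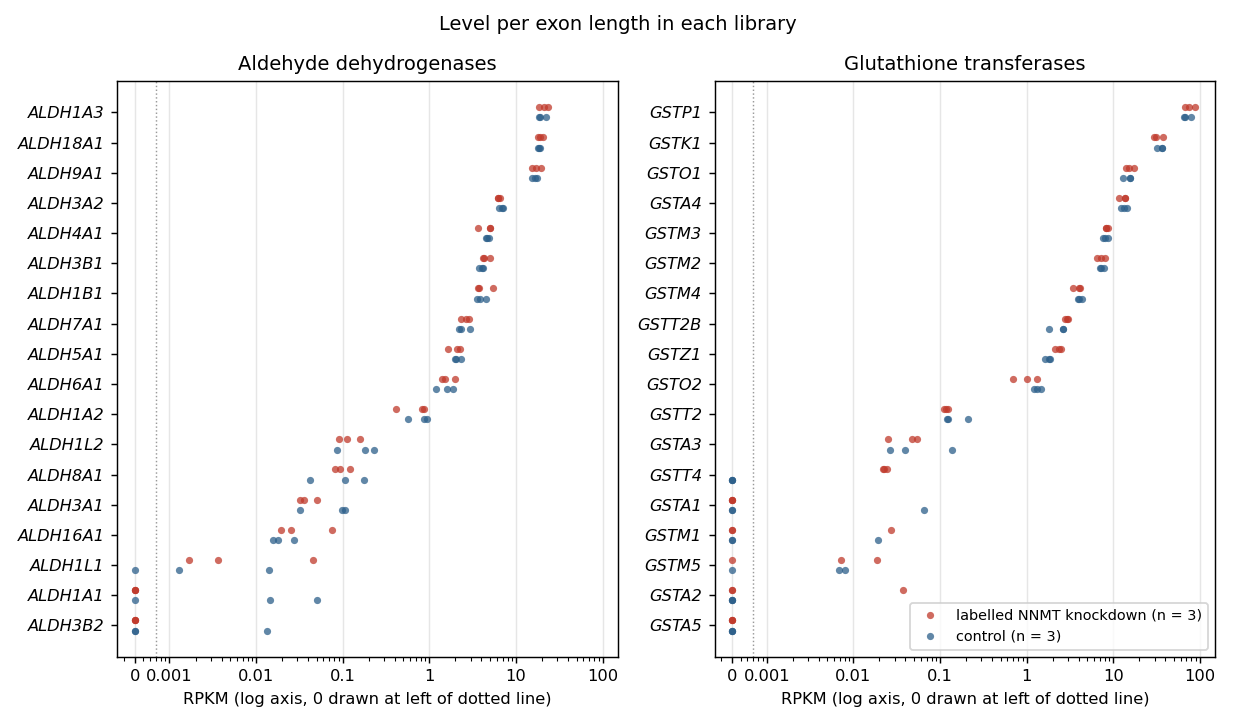
Level per length of the members in each library, in RPKM, for libraries labelled NNMT knockdown and control libraries. GSTP1 has the highest mean at 73.4 RPKM, followed by GSTK1 at 33.8 RPKM and ALDH1A3 at 20.5 RPKM.

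Among the aldehyde dehydrogenases, the retinaldehyde oxidising enzymes of the 1A subfamily differed widely in level. ALDH1A3 (chr15:100877714-100916626, plus strand) was the highest ALDH member per length, at 20.5 RPKM, above 89.9% of tested genes. It had 112, 124 and 99.7 CPM in replicates 1, 2 and 3 labelled NNMT knockdown, against 120, 101 and 98.6 CPM in control replicates 1, 2 and 3. The groups overlapped, with replicate 2 labelled NNMT knockdown highest and control replicate 3 lowest. The log2 fold change was 0.07 (SE 0.11). In bulk RNA such as this, fewer cells of a type and less RNA per cell cannot be told apart. Exons of other genes cover 33.3% of its exon bases, mostly those of its antisense gene. Reads overlapping several genes were not counted and no strand was used, so reads in the shared bases were left out. RPKM still divides by all exon bases, so the ALDH1A3 level is uncertain and may be understated. ALDH1A2, another retinaldehyde oxidising enzyme, averaged 0.747 RPKM. ALDH1A1, the third enzyme of this kind, had 0 reads in all libraries labelled NNMT knockdown, against 6, 2 and 0 reads in controls, and did not pass the filter.

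ALDH18A1 (chr10:95605941-95656711, minus strand), which makes the precursor of proline from glutamate, was next at 18.8 RPKM. It had 67.9, 76.8 and 71.7 CPM in replicates 1, 2 and 3 labelled NNMT knockdown, against 67.4, 69.2 and 71.8 CPM in control replicates 1, 2 and 3. These groups overlapped, and the log2 fold change was 0.06 (SE 0.08). ALDH9A1 (chr1:165662216-165698562, minus strand), an enzyme of carnitine synthesis that oxidises aminoaldehydes, had a level of 16.9 RPKM. Its values were 50.6, 58.6 and 46.4 CPM in replicates 1, 2 and 3 labelled NNMT knockdown, against 52.0, 46.6 and 50.3 CPM in control replicates 1, 2 and 3. Libraries labelled NNMT knockdown held both its highest and its lowest value. The log2 fold change was 0.07 (SE 0.10), and it was -0.02 without replicate 2 labelled NNMT knockdown.

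Enzymes of lipid aldehydes were also expressed. ALDH3A2 (chr17:19648136-19685760, plus strand), the fatty aldehyde dehydrogenase deficient in Sjögren-Larsson syndrome, averaged 6.53 RPKM. It had 94.5, 101 and 94.1 CPM in replicates 1, 2 and 3 labelled NNMT knockdown, against 97.7, 108 and 105 CPM in control replicates 1, 2 and 3. The ranges overlapped in 1 place only, since replicate 2 labelled NNMT knockdown lay above control replicate 1. The log2 fold change was -0.10 (SE 0.08). ALDH3B1 (chr11:68008578-68029282, plus strand), which acts on aldehydes from lipid peroxidation, averaged 4.23 RPKM. Its level was 28.1, 33.5 and 27.3 CPM in replicates 1, 2 and 3 labelled NNMT knockdown, against 27.0, 27.5 and 24.8 CPM in control replicates 1, 2 and 3. The groups overlapped narrowly, and the log2 fold change was 0.17 (SE 0.10).

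The mitochondrial folate enzyme ALDH1L2 (chr12:105019784-105107643, minus strand) was low, at 0.143 RPKM. It had 0.863, 1.52 and 1.06 CPM in replicates 1, 2 and 3 labelled NNMT knockdown, against 0.817, 1.70 and 2.19 CPM in control replicates 1, 2 and 3. Its log2 fold change of -0.45 (SE 0.38) was the largest in size among the tested ALDH members, and its groups overlapped. The enzymes of amino acid breakdown lay between 1.60 and 4.61 RPKM: ALDH4A1 for proline, ALDH5A1 for the neurotransmitter GABA, ALDH6A1 for valine and ALDH7A1 for lysine. Their log2 fold changes ran from -0.08 to 0.08. ALDH1B1, a mitochondrial enzyme that oxidises acetaldehyde and retinaldehyde, averaged 4.14 RPKM. ALDH8A1, an enzyme of the kynurenine pathway, averaged 0.103 RPKM.

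The 5 ALDH members that did not pass the filter were ALDH1A1, ALDH1L1, ALDH3A1, ALDH3B2 and ALDH16A1. ALDH1L1, the cytosolic folate enzyme, had 2, 28 and 1 reads in replicates 1, 2 and 3 labelled NNMT knockdown, against 8, 0 and 1 reads in control replicates 1, 2 and 3. ALDH3A1, which oxidises medium-chain and aromatic aldehydes, had 5, 9 and 6 reads in replicates 1, 2 and 3 labelled NNMT knockdown, against 16, 20 and 7 reads in control replicates 1, 2 and 3. The groups overlapped for both genes, and replicate 2 labelled NNMT knockdown held most of the ALDH1L1 reads.

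Glutathione transferases were led by GSTP1 (chr11:67583742-67586656, plus strand), the pi-class enzyme common in epithelial tumours. At 73.4 RPKM it lay above 98.1% of tested genes. It had 131, 154 and 118 CPM in replicates 1, 2 and 3 labelled NNMT knockdown, against 139, 120 and 115 CPM in control replicates 1, 2 and 3. The groups overlapped, and the log2 fold change was 0.11 (SE 0.11). GSTK1 (chr7:143244093-143270854, plus strand), the kappa-class enzyme of mitochondria and peroxisomes, averaged 33.8 RPKM. Its level was 130, 124 and 158 CPM in replicates 1, 2 and 3 labelled NNMT knockdown, against 134, 154 and 156 CPM in control replicates 1, 2 and 3. Libraries labelled NNMT knockdown held both the highest and the lowest value, and the log2 fold change was -0.10 (SE 0.11).

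GSTZ1 (chr14:77320996-77331597, plus strand) is the zeta-class enzyme that isomerises maleylacetoacetate in tyrosine breakdown. It had 19.996, 20.9 and 17.7 CPM in replicates 1, 2 and 3 labelled NNMT knockdown, against 15.7, 13.5 and 15.1 CPM in control replicates 1, 2 and 3. All 3 libraries labelled NNMT knockdown lay above all 3 controls. The means were 19.5 ± 1.66 CPM in libraries labelled NNMT knockdown and 14.8 ± 1.13 CPM in controls (SD, n = 3 each). The log2 fold change was 0.41 (SE 0.12), and the fold had 95% bounds of 1.11 and 1.59. Its unadjusted p was 0.00563 and its adjusted p over all genes 0.9995 in edgeR's quasi-likelihood test, so it did not pass the threshold of 0.05. GSTZ1 shares no exon base with another gene in the annotation.

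The omega-class enzymes GSTO1 and GSTO2, which reduce dehydroascorbate, are neighbours on the plus strand at chr10:104235356-104267459 and chr10:104268873-104304950. GSTO1 had 25.7, 29.03 and 24.0 CPM in replicates 1, 2 and 3 labelled NNMT knockdown, against 26.5, 26.1 and 21.9 CPM in control replicates 1, 2 and 3. GSTO2 had 6.95, 10.0 and 13.2 CPM in replicates 1, 2 and 3 labelled NNMT knockdown, against 13.0, 12.1 and 14.7 CPM in control replicates 1, 2 and 3. Both pairs of groups overlapped, for GSTO2 through replicate 3 labelled NNMT knockdown alone. The log2 fold change was 0.08 (SE 0.11) for GSTO1 and -0.40 (SE 0.20) for GSTO2. For GSTO2, edgeR's quasi-likelihood test gave an unadjusted p of 0.0772 and an adjusted p of 0.9995. Without replicate 3 labelled NNMT knockdown its log2 fold change was -0.65, and without replicate 1 of that group -0.20.

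GSTA4 (chr6:52977948-52995304, minus strand), the alpha-class enzyme that conjugates hydroxynonenal from lipid peroxidation, averaged 13.2 RPKM. It had 28.7, 24.4 and 28.8 CPM in replicates 1, 2 and 3 labelled NNMT knockdown, against 28.2, 25.8 and 30.4 CPM in control replicates 1, 2 and 3. The groups overlapped, and the log2 fold change was -0.04 (SE 0.11). The mu-class enzymes GSTM2, GSTM3 and GSTM4 lay between 3.98 and 8.27 RPKM, with log2 fold changes from -0.08 to 0.05. The other alpha-class and mu-class members GSTA1, GSTA2, GSTA3, GSTA5, GSTM1 and GSTM5 did not pass the filter, nor did the theta-class members GSTT2 and GSTT4. GSTA5 had 0 reads in all libraries. GSTT4 had 2 reads in each library labelled NNMT knockdown and 0 in each control, and as mates were counted singly, 2 reads can come from 1 fragment.

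**Figure D2:**
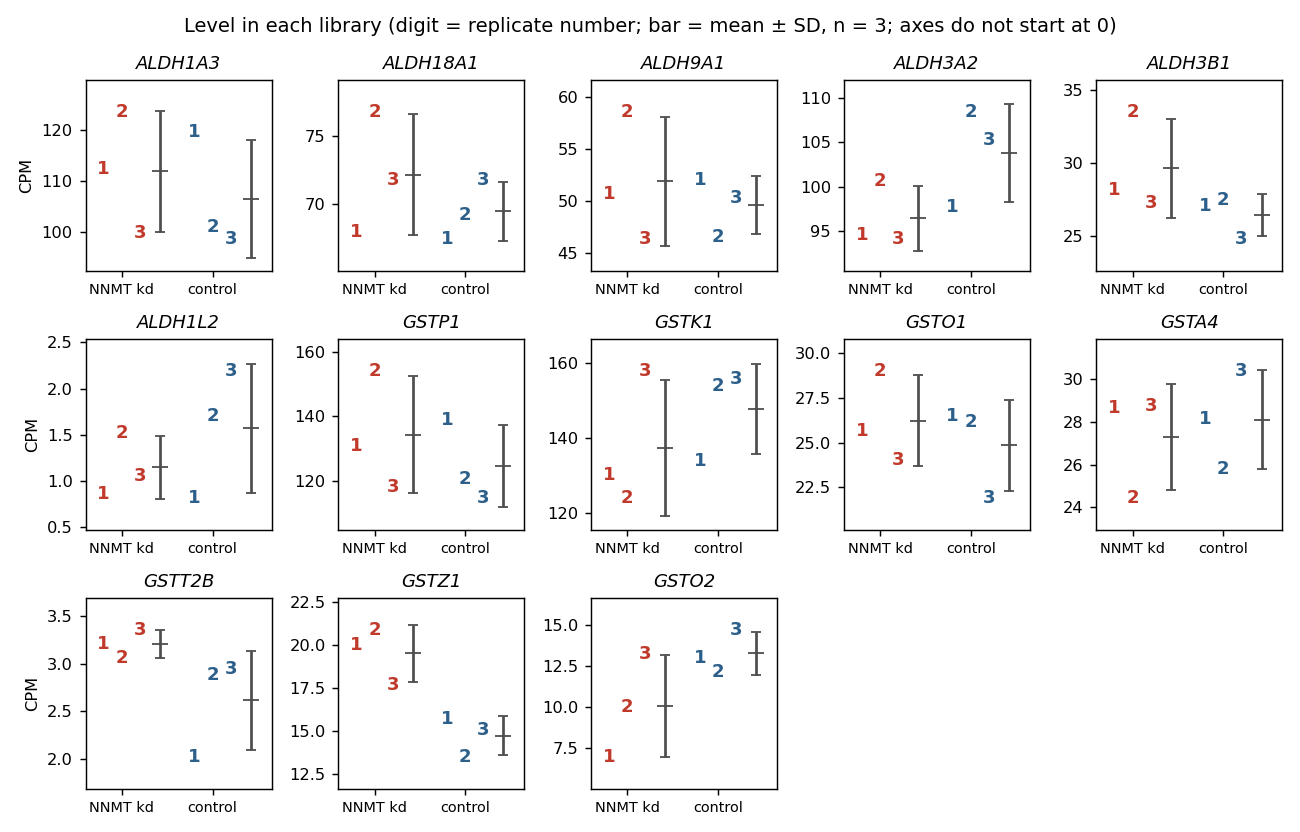
Level in CPM of the 13 members given library by library, for libraries labelled NNMT knockdown and control libraries. GSTZ1 and GSTT2B are the tested members whose groups do not overlap.

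The theta-class pair GSTT2 and GSTT2B shows how the counting treats near-identical copies. GSTT2 lies at chr22:23980058-23983915 on the plus strand and GSTT2B at chr22:23957414-23961195 on the minus strand. In the GENCODE 29 transcripts their coding sequences have 729 and 732 bases, differ by 1 substitution and 3 gap bases, and are identical in 99.45% of aligned columns. The substitution is A352G, with the GSTT2 base first and positions counted from the first coding base. Coding positions 322 to 382 are shown with that base in capitals, because few other bases tell the copies apart.
GSTT2: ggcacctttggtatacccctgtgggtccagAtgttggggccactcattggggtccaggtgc
GSTT2B: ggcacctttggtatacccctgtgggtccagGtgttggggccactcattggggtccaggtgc

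Of all windows of 150 bases, the read length, 52.1% in GSTT2 and 63.2% in GSTT2B also occurred in transcripts of another gene. GSTT2 had 6, 6 and 6 reads in replicates 1, 2 and 3 labelled NNMT knockdown, against 6, 7 and 14 reads in control replicates 1, 2 and 3. GSTT2B had 3.21, 3.06 and 3.36 CPM in replicates 1, 2 and 3 labelled NNMT knockdown, against 2.02, 2.88 and 2.94 CPM in control replicates 1, 2 and 3. All libraries labelled NNMT knockdown lay above all controls for GSTT2B, with control replicate 1 lowest. Its log2 fold change was 0.30 (SE 0.22), and edgeR's quasi-likelihood test gave an unadjusted p of 0.199. As multi-mapping reads were left out, the levels of both copies are uncertain. GSTM1, whose coding sequence is 89.91% identical to that of GSTM2, shares 38.3% of its exon bases with other genes at its own locus and 33.1% of its windows with other genes' transcripts. Its level is uncertain as well, since reads overlapping several genes were not counted.

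Across the comparison, edgeR's quasi-likelihood test called 0 of the 23 tested members at its adjusted threshold of 0.05, where 0% of all 20250 genes tested were called higher and 0% lower. At an unadjusted p under 0.05, 1 member was higher (GSTZ1), against 1.98% of all genes tested, and 0 were lower, against 2.05% (4.03% in either direction). Groups that did not overlap were found for 2 members in the higher direction (GSTZ1 and GSTT2B), against 4.29% of all genes tested, and for 0 in the lower direction, against 4.88% (9.17% in either direction). With counts of 1 and 2 out of 23 beside these background shares, no result about the members as a group was read from them.

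Of the ALDH members tested, 7 had a log2 fold change above 0 and 6 below 0, with a median of 0.06. Of the GST members, 5 lay above 0 and 5 below, with a median of 0.02. The median over all genes tested was 0.00333, and 50.8% of them lay above 0. The members' median absolute log2 fold change was 0.08, against 0.12 over all genes tested, and 19 of the 23 lay within 0.2 of 0. The 95% interval of the fold stayed within 2-fold for 21 members (70.8% of all genes tested) and within 1.5-fold for 17 (52.7%). The 2 members whose interval was wider than 2-fold were low ALDH genes. These comparisons with all genes were not matched for level. The tested members had a median of 25.5 CPM, against 9.57 CPM over all genes tested, so no unusual stability was read from them.

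**Figure D3:**
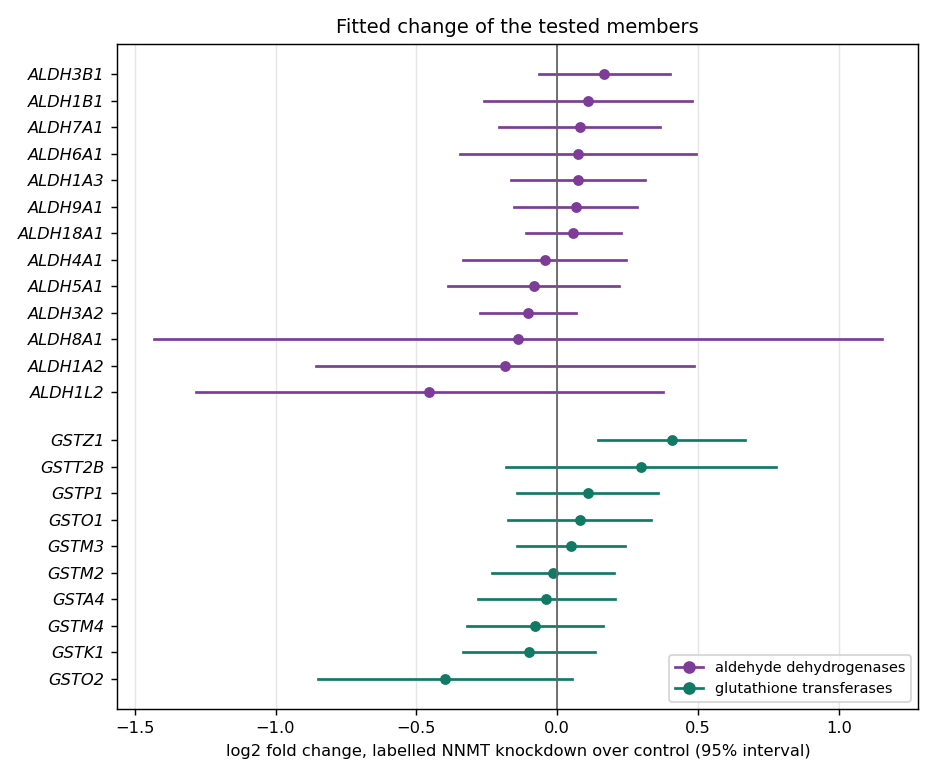
Fitted log2 fold change of the 23 tested members, labelled NNMT knockdown over control, with 95% intervals. GSTZ1 at 0.41 has an interval above 0, and no member passed the adjusted threshold.

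Summed over all members, the ALDH genes reached 472.2 ± 36.7 CPM in libraries labelled NNMT knockdown and 464.7 ± 15.6 CPM in controls (SD, n = 3 each). The GST genes reached 485.1 ± 15.8 CPM in libraries labelled NNMT knockdown and 483.9 ± 5.57 CPM in controls (SD, n = 3 each). Both differences were smaller than the spread between replicates.

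Single libraries often held the extreme values of several members. Replicate 2 labelled NNMT knockdown held the highest value of 9 of the 23 tested members, where 19.7% of all tested genes were highest in that library. These were ALDH18A1, ALDH1A3, ALDH1B1, ALDH3B1, ALDH6A1, ALDH9A1, GSTO1, GSTP1 and GSTZ1. The same library was lowest for ALDH1A2, GSTA4, GSTK1 and GSTM2. Replicates 1 and 3 labelled NNMT knockdown were highest for 0 and 5 members, against 19.1% and 12.3% of all tested genes. Control replicates 1, 2 and 3 were highest for 2, 2 and 5 members, against 15.5%, 16.3% and 17% of all tested genes. The members above their own mean over the 6 libraries numbered 13, 15 and 12 of 23 in replicates 1, 2 and 3 labelled NNMT knockdown, against 13, 8 and 12 in control replicates 1, 2 and 3. Of all genes tested, 50.2% to 52.4% lay above their own mean in each library. At 5 CPM or more, the median coefficient of variation over the 6 libraries was 10.4% for 20 members and 9.26% for 11518 genes.

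**Figure D4:**
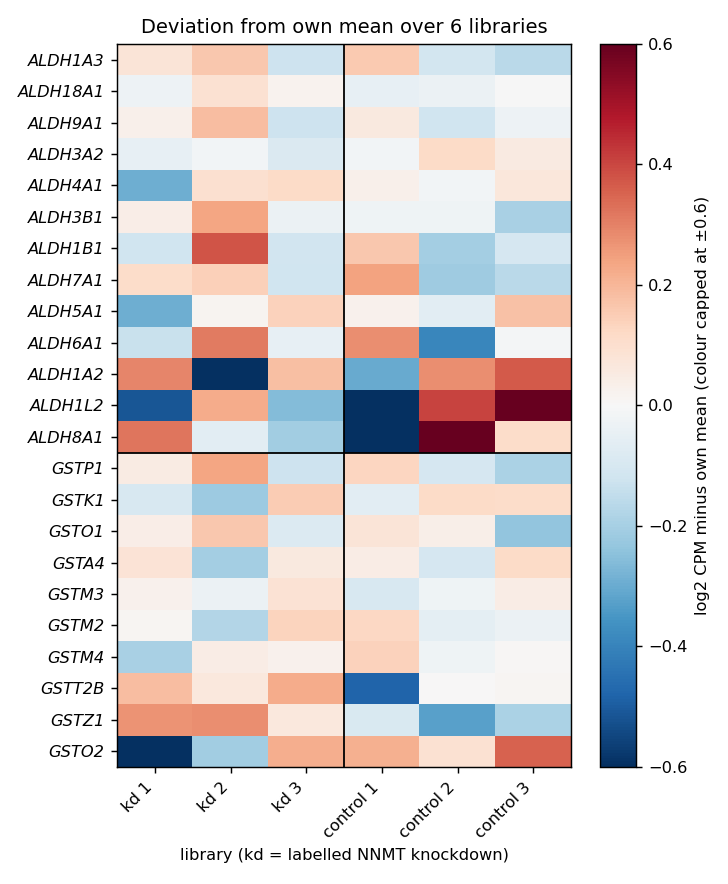
Deviation of each tested member from its own mean over the 6 libraries, in log2 units, by library. The median deviation is 0.09 in replicate 2 labelled NNMT knockdown and -0.03 in control replicate 2.

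Promoter sequence was compared with level, as a description without a test. RefSeq promoters (GRCh38.p14), from 250 bases before to 50 bases after the start, were matched for 30 of the 36 members. The 17 members above 10 CPM in every library had a median ratio of observed to expected CG dinucleotides of 0.679 and a median of 21 such dinucleotides. The 10 matched members below 1 CPM in every library had a median ratio of 0.269 and a median of 5. Over all 35116 promoters the medians were 0.579 and 14. There were exceptions on both sides, since GSTM3 has 1 CG dinucleotide at 8.27 RPKM, while GSTM1 and GSTM5 have 22 each and were near 0. The GSTM1 level is uncertain, as given above, because it shares exon bases with other genes.

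The 120 bases before the start are shown for 3 expressed members and 2 near 0, as picked examples, with CG dinucleotides in capitals. Over the full promoters the ratio was 0.879 for GSTP1, 0.923 for ALDH1A3, 0.824 for GSTZ1, 0.574 for ALDH1A1 and 0.316 for GSTA1. ALDH1A1 thus lay near the median ratio of all promoters. The windows are chr11:67583692-67583811 (plus strand) for GSTP1, chr15:100879711-100879830 (plus) for ALDH1A3, chr14:77320916-77321035 (plus) for GSTZ1, chr9:72953054-72953173 (minus) for ALDH1A1 and chr6:52803817-52803936 (minus) for GSTA1.
GSTP1: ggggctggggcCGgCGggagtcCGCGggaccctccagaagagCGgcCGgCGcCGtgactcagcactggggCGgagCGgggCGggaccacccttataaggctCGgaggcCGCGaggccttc
ALDH1A3: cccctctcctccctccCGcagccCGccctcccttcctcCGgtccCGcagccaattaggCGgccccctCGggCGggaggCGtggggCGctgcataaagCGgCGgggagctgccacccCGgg
GSTZ1: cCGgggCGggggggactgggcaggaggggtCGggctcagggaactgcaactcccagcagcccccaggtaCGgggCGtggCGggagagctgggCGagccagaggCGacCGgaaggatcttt
ALDH1A1: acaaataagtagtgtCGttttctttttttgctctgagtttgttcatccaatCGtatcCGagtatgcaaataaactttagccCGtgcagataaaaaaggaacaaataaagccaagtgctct
GSTA1: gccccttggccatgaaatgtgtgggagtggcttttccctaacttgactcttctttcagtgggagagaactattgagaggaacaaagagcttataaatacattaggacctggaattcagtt

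**Figure D5:**
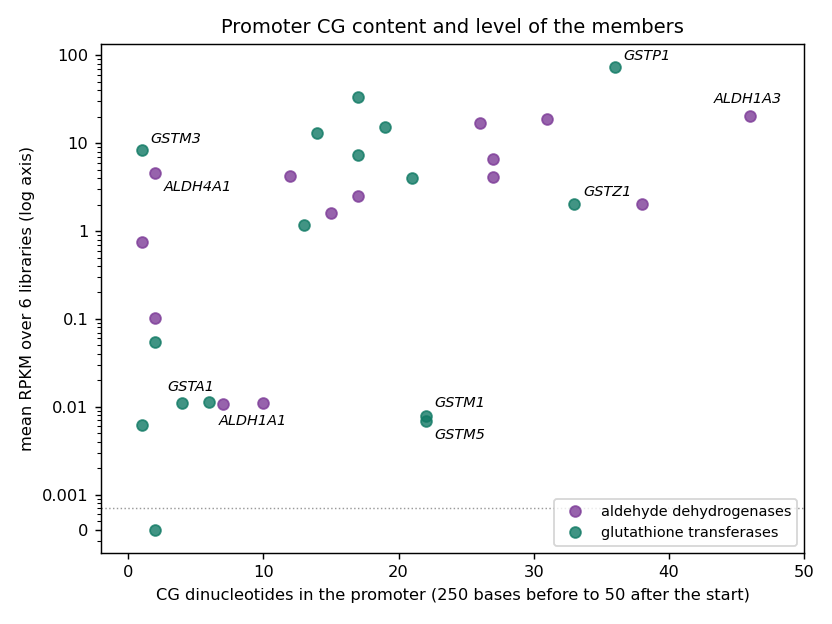
Number of CG dinucleotides in the promoter window kept for each matched member, against its mean level in RPKM. Members above 10 CPM in every library have a median of 21 and matched members below 1 CPM a median of 5.

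A set of 3 motifs was searched on both strands of these promoters. The core of the antioxidant response element, TGACNNNGC, occurred in 5 of 30 member promoters (16.7%), against 13.3% of all promoters. The core of the xenobiotic response element, GCGTG, occurred in 8 (26.7%), against 36.5% of all promoters. The AP-1 motif TGANTCA occurred in 1 (3.33%), that of GSTP1, where it overlaps the antioxidant response element match, against 7.71% of all promoters. A match here describes letters in the window only.

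Genes of connected pathways were counted in the same fit. By edgeR's quasi-likelihood test, 0 genes passed the adjusted threshold in each of the 6 lists. Retinoid handling had 20 tested genes, 12 above 0 and 8 below. The retinoic acid receptor gene RARG averaged 28.4 ± 2.65 CPM in libraries labelled NNMT knockdown and 34.2 ± 3.66 CPM in controls (SD, n = 3 each), and the retinal reductase gene DHRS4 averaged 8.83 ± 1.62 CPM in libraries labelled NNMT knockdown and 6.94 ± 0.371 CPM in controls. Aldehyde handling outside the ALDH symbols had 18 tested genes, 8 above 0 and 10 below. There the aldehyde oxidase gene AOX1 averaged 207 ± 48.2 CPM in libraries labelled NNMT knockdown and 157 ± 17.8 CPM in controls (SD, n = 3 each). The aldehyde reductase gene AKR7A2 averaged 37.9 ± 2.15 CPM in libraries labelled NNMT knockdown and 34.0 ± 3.29 CPM in controls.

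The partners in proline, GABA and branched-chain metabolism had 17 tested genes, 10 above 0 and 7 below. ABAT, the GABA transaminase gene, averaged 2.31 ± 0.322 CPM in libraries labelled NNMT knockdown and 1.55 ± 0.513 CPM in controls (SD, n = 3 each). The folate enzyme gene MTHFD1 averaged 132 ± 30.2 CPM in libraries labelled NNMT knockdown and 115 ± 13.0 CPM in controls. Glutathione synthesis and recycling had 18 tested genes, 11 above 0 and 7 below. SLC7A11, the cystine importer gene, averaged 79.5 ± 14.7 CPM in libraries labelled NNMT knockdown and 99.6 ± 12.1 CPM in controls (SD, n = 3 each). The mitochondrial glutaredoxin gene GLRX5 averaged 35.0 ± 5.43 CPM in libraries labelled NNMT knockdown and 30.2 ± 1.70 CPM in controls.

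Other glutathione-using enzymes and conjugate exporters had 19 tested genes, 11 above 0 and 8 below. The exporter gene ABCC5 averaged 107 ± 9.27 CPM in libraries labelled NNMT knockdown and 120 ± 12.9 CPM in controls (SD, n = 3 each). PTGES2, a prostaglandin synthase gene, averaged 45.3 ± 1.25 CPM in libraries labelled NNMT knockdown and 41.1 ± 0.942 CPM in controls. Regulators and classic targets of NRF2, the factor that acts at antioxidant response elements, had 19 tested genes, 10 above 0 and 9 below. Its partner genes MAFK and MAFG lay on opposite sides. MAFK averaged 192 ± 19.5 CPM in libraries labelled NNMT knockdown and 162 ± 7.26 CPM in controls, and MAFG 64.5 ± 4.99 CPM in libraries labelled NNMT knockdown and 74.3 ± 6.43 CPM in controls (SD, n = 3 each). At an unadjusted p under 0.05 in edgeR's quasi-likelihood test, AOX1 (0.047) and MAFK (0.0276) were higher, and RARG (0.0378), SLC7A11 (0.0355) and MAFG (0.0495) were lower in libraries labelled NNMT knockdown. Over all genes tested, the shares at this p were 1.98% higher and 2.05% lower, and nothing about the lists was read from these genes. The medians of the 6 lists lay between -0.02 and 0.06 on the log2 scale, beside 0.00333 over all genes tested.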

How the data were processed

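The authors deposited raw read counts per gene, made per the file headers with featureCounts 2.0.6 from hg38 alignments and the GENCODE 44 annotation. An aligner's name was not given in the labels or headers used. Multi-mapping reads and reads overlapping several genes were not counted, no strand option was set, and mates were counted singly, per the file headers. Among genes with 2 to 10 reads, 73.4% to 76.7% of counts were even, against 49.8% to 50.7% at 1000 reads or more. Exon lengths in bases, another deposited column, were used only for RPKM.

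All 62700 identifiers matched a symbol. Groups and replicate numbers came from the sample titles. Genes were filtered with filterByExpr, which kept 20250, scaled with TMM and tested with edgeR 4.0.16 (R 4.3.3; robust quasi-likelihood test, group as sole term, Benjamini-Hochberg adjustment over all genes, threshold 0.05). NNMT did not pass the filter and was added to a separate fit. CPM and RPKM were computed here from library totals. If reads were independent, a count of 0 would allow up to 3 reads, or 0.0535 to 0.074 CPM, for counting error only. As mates were counted singly, low counts often came in pairs, so the bound in reads is higher than this. Pairs of libraries differed beyond sampling noise (chi-square per gene at least 12 over 15 pairs). The fit was tested on simulated data.

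Values per library are given for members with an unadjusted p under 0.05, the 4 lowest p or the 4 highest RPKM of each family, and 2 genes with the lowest p are named per pathway list. Members and lists were chosen with earlier results of these data known. Alternatives were other scalings and filters, DESeq2 1.42.0, limma-voom (limma 3.58.1), halved counts, the replicate number as a block, and leaving out each library.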

Additional observations from a re-analysis of the deposited data

How the results depend on the processing

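No member passed the adjusted threshold under any of the 14 alternatives run. Over all genes, the 0 calls of edgeR's quasi-likelihood test (817 genes at an unadjusted p under 0.05) became 72 with no filter on low counts and 8 with DESeq2, and the cause was not tested. Leaving out 1 library gave 0 to 1 calls, with the 1 call found without control replicate 3. The ALDH median log2 fold change ranged from -0.0785 (without replicate 2 labelled NNMT knockdown) to 0.061 when 1 library was left out. The GST median ranged from -0.0297 (without replicate 3 labelled NNMT knockdown) to 0.0287. NNMT ranged from -0.188 (without replicate 3 labelled NNMT knockdown) to 1.06, and was -0.0428 without control replicate 1. Among single members, ALDH9A1 ranged from -0.0201 to 0.139, GSTA4 from -0.0973 to 0.0435 and GSTO1 from -0.0139 to 0.139. GSTA4 was 0.0435 without replicate 2 labelled NNMT knockdown and 0.0101 without control replicate 3, and GSTO1 was -0.0139 without control replicate 3. GSTZ1 stayed between 0.346 and 0.473, with an unadjusted p from 0.00339 to 0.0298 and an adjusted p from 0.404 to 1 across edgeR, DESeq2 and limma-voom. GSTO2 passed an unadjusted p of 0.05 in DESeq2 (0.0475), limma-voom (0.0492), edgeR without the filter (0.0113), edgeR with the block (0.0352) and edgeR without replicate 3 labelled NNMT knockdown (0.00527). ALDH1L2 did so in edgeR without control replicate 1 (0.0465). With the replicate number as a block, 0 genes and 0 members were called, and the ALDH and GST medians were 0.0567 and 0.0158. Same-numbered libraries of the groups had correlations of deviations of 0.055, -0.0869 and 0.2 for replicates 1, 2 and 3. Differently numbered libraries gave -0.224 to 0.151. The replicate 3 libraries also had the lowest chi-square per gene of the 15 pairs, at 11.97. Next came replicate 3 labelled NNMT knockdown with control replicate 2 (18.17) and replicate 2 labelled NNMT knockdown with control replicate 1 (21.07). Pairs within a group gave 22.83 to 36.25, and other pairs across the groups reached 43.96. Whether same-numbered libraries share a batch was not tested. ALDH1L2 and GSTT2B gave no value under the filter at 5 CPM, and NNMT gave none in limma-voom. Most of the 13 untested members had fewer than 20 reads in every library, and no difference in them could be tested here.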

Other observations

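ALDH2, the mitochondrial acetaldehyde enzyme, was chosen for mention after its values were seen. It had 2.07, 11.1 and 2.69 CPM in replicates 1, 2 and 3 labelled NNMT knockdown, against 2.96, 4.81 and 6.19 CPM in control replicates 1, 2 and 3. The groups overlapped, with replicate 2 labelled NNMT knockdown highest, and the log2 fold change was 0.18 (SE 0.71). ALDH16A1 lay at 0.0721 to 0.345 CPM. Of the genes around it, PIH1D1 lay at 93.6 to 109 CPM and RPL13A, farther off, at 1282 to 1551 CPM, while FLT3LG lay at 0.173 to 0.553 CPM and SLC17A7 at 0.313 to 0.696 CPM. Exons of other genes cover 10.7% of its exon bases.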
